A study of Mus musculus with 282 samples.

Results

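The hypothalamus of 61 mice in which Ttr, the gene of the thyroxine carrier transthyretin, reached an FPKM of at least 400 was compared with that of 91 mice in which Ttr stayed below 10. FPKM is a fragment count scaled to transcript length and to the size of the library. The remaining 130 of the 282 mice lay between these limits. All 282 were male, all had been given a high fat diet, and all belonged to the HMDP, a panel that joins classical inbred lines with the recombinant inbred sets AXB/BXA, BXD, BXH and CXB. The groups were chosen by the measured FPKM of Ttr alone. Each mouse gave 1 unstranded mRNA library of its whole hypothalamus, and no age was given in the labels. The mice with high Ttr came from 42 strains and those with low Ttr from 56 strains, and 14 strains held both.

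The choroid plexus is a folded tissue that hangs in the ventricles of the brain and secretes the cerebrospinal fluid. Its epithelium makes transthyretin in large amounts, moves ions and water through channels, transporters and carbonic anhydrases, and takes up folate and other nutrients from the blood. In the third ventricle it hangs from the roof, while the hypothalamus forms the floor and the lower walls, and its epithelium continues into the ciliated ependyma that lines the ventricle. Its core holds fenestrated vessels and connective tissue.

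Ttr ranged from 0.845 to 2040 FPKM over the 282 mice. In the high group its lowest value was 414, its median 861 and its highest 2040 FPKM, and in the low group these were 0.845, 6.20 and 9.71 FPKM. The mice just inside the high group stood at 414, 469 and 525 FPKM and those just outside at 331, 357 and 393 FPKM. The limit of 10 FPKM fell inside a dense part of the distribution, with values of 9.70, 9.71 and 9.71 FPKM just below it and of 10.02, 10.1 and 10.3 FPKM just above. Few mice lay in the range from 50 to below 400 FPKM, which held 10, 7 and 9 mice in the steps divided at 100 and 200 FPKM, against 70 mice from 10 to below 20 FPKM. Since Ttr chose the groups, its values are a description and were given no test, and any gene that moves with Ttr is bound to differ between the groups.

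**Figure D1:**
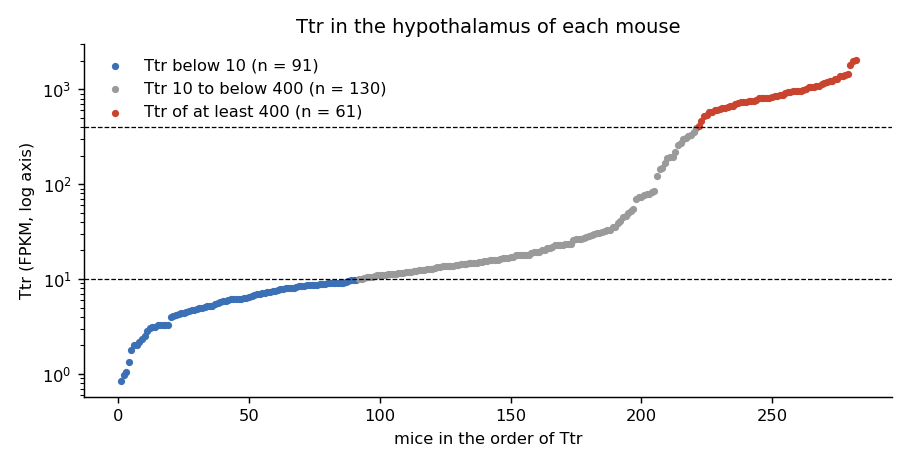
Ttr in FPKM on a log axis for each of the 282 mice, in the order of their values, with dashed lines at the limits of 10 and 400 FPKM. The points rise steeply between the limits, and the 61 mice of the high group form a plateau that ends at 2040 FPKM.

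High Ttr was not a property of a few strains. Of the 85 strains with 3 mice, 4 had high Ttr in all 3 (BXD-39/TyJ, BXD-9/TyJ, BXD51 and BXD79), 11 had it in 2, 24 in 1 and 46 in none. Strain accounted for 0.341 of the variance of log2(Ttr + 1), as an intraclass correlation. The share of mice with high Ttr was 27.0% of 126 BXD mice, 23.8% of 21 CXB mice, 17.0% of 47 AXB/BXA mice, 16.9% of 71 classical inbred mice and 12.5% of 16 BXH mice. The share with low Ttr also varied with the numbers that the labels give to the mice, without a steady trend. In steps of 250 numbers it was 16.1%, 34.4%, 27.9%, 20%, 40% and 52.3%, and the share with high Ttr was 29.03%, 24.6%, 21.3%, 28.9%, 15% and 11.4%. What these numbers stand for is not given in the sources used here, and their part in the differences between groups was not tested. The sum of FPKM was alike in the groups, with medians of 340179 in high and 336386 in low mice, and Ttr itself took at most 0.592% of it.

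Of 14078 genes other than Ttr, 395 were higher (2.81%) and 191 were lower (1.36%) in mice with high Ttr, 4.16% in all, by the moderated test of limma on log2(FPKM + 1) with strain as a term and an adjusted p below 0.05. With strain in the fit, the difference was measured in the 14 strains that held both groups, with 17 high and 15 low mice, while the others contributed to the residual spread. The directions differed in size. The median log2 difference of the higher genes was 0.26 and the largest was 2.32, with 68 genes at 0.5 or more and 21 at 1 or more, whereas no lower gene reached a fall of 0.5. In only 8 genes (0.0568%) did the lowest high mouse exceed the highest low mouse. These were 1500015O10Rik, Sostdc1, Kl, Enpp2, Aqp1 and 3 loci with no name in the assembly. The opposite separation was seen in 0 genes. Outside the high group Aqp1 exceeded 1 FPKM in 6 mice, and XLOC_000767, XLOC_029390 and XLOC_030512, the unnamed loci, in 9, 4 and 2. Aqp1 and these loci passed the authors' expression limit only through the high group. They had to differ, and their separation is a description. 1500015O10Rik, Sostdc1, Kl and Enpp2 exceeded 1 FPKM in 206, 188, 204 and 221 mice outside that group.

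The genes listed for choroid plexus moved together and in 1 direction. Of 89 genes listed, 58 were measured under their names. Beside 2.81% higher and 1.36% lower of all genes, 37 of these 58 were higher, 0 lower and 21 not called. Their median log2 difference was 0.31, against -0.0012 for all genes tested. The list was made with earlier results of these data known, and Ttr, the gene that set the groups, is a gene of the same tissue. The other 31 are not among the named loci analysed here, Kcne2, Slc4a5, Lmx1a, F5 and the tight junction genes Cldn1, Cldn2 and Cldn3 among them. In bulk tissue, fewer cells of a type and less RNA per cell cannot be told apart. The counts by kind of gene given below are to be read beside the same 2.81% and 1.36%. The strongest members are shown by mouse in the plot of 12 genes by group.

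**Figure D2:**
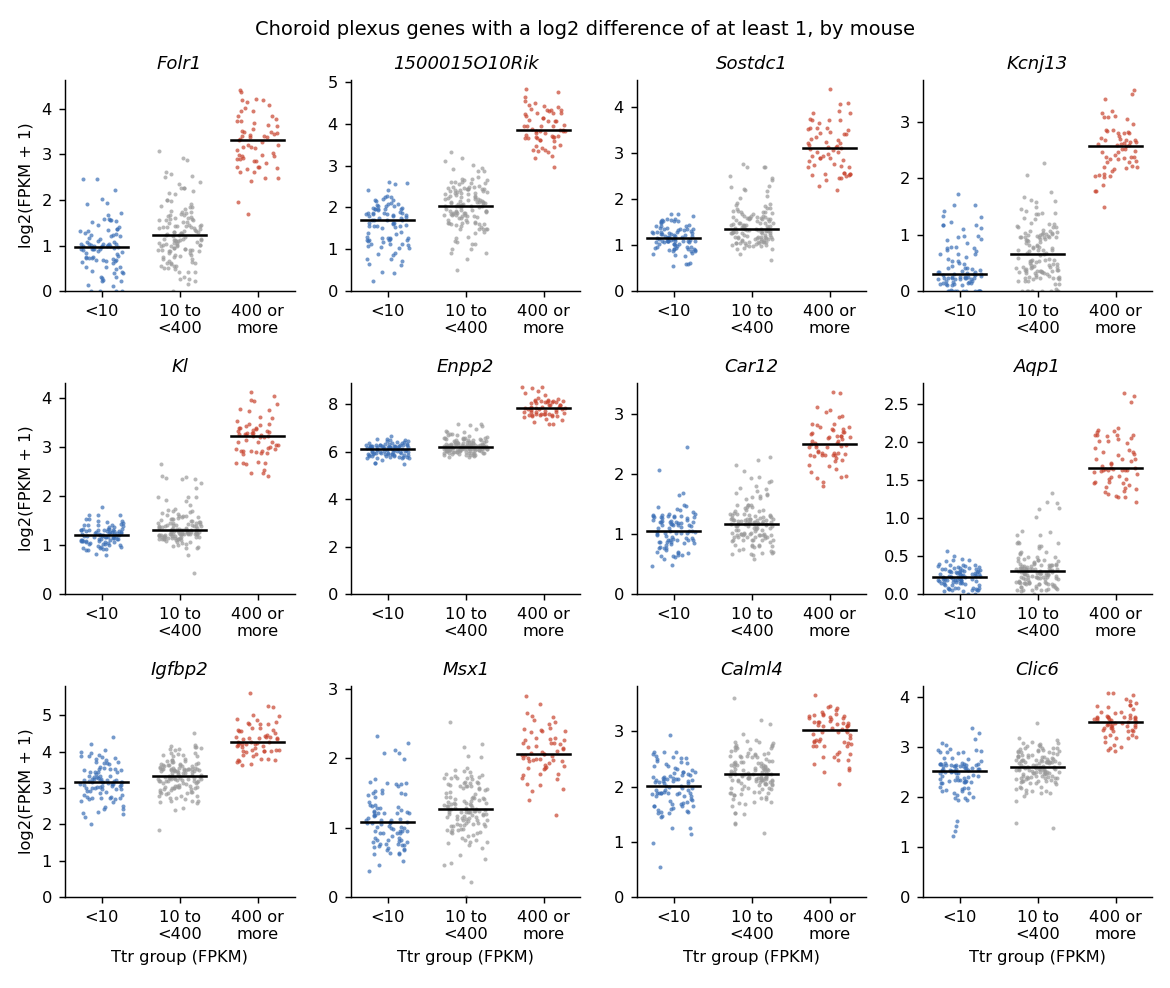
Level of the 12 choroid plexus genes with a log2 difference of at least 1, as log2(FPKM + 1), in mice with Ttr below 10 (blue, n = 91), from 10 to below 400 (grey, n = 130) and of at least 400 FPKM (red, n = 61). Each point is 1 mouse and each bar the median, and in Sostdc1, Kl, Enpp2, Aqp1 and 1500015O10Rik every red point lies above every blue point.

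Membrane receptors gave some of the clearest differences. Kl (XLOC_027627, mm10 chromosome 5, 150952607 to 150993809) encodes klotho, a co-receptor for fibroblast growth factors, and in high mice its lowest, median and highest values were 4.30, 8.42 and 16.5 FPKM against 0.745, 1.30 and 2.44 FPKM in low mice. All 61 high mice lay above all low mice. The log2 difference was 2.01 ± 0.101 (SE, adjusted p = 4.53e-27), and it was positive in each of the 14 strains, from 1.44 to 2.67. Folr1 (chromosome 7, 101858331 to 101869324), the folate receptor that carries folate into the cerebrospinal fluid, ran from 2.24 over 8.89 to 20.3 FPKM in high mice and from 0 over 0.954 to 4.54 FPKM in low mice. Here 58 of the 61 high mice lay above all low mice, and the log2 difference was 2.32 ± 0.156 (SE, adjusted p = 3.06e-20). Among the 12 receptors and other membrane proteins measured, 9 were higher.

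Calml4, a calmodulin-like protein, had medians of 7.08 and 3.01 FPKM and a log2 difference of 1.02 ± 0.104. Prlr, the prolactin receptor, overlapped broadly, with 3.63, 6.35 and 12.6 FPKM in high and 2.00, 4.59 and 8.28 FPKM in low mice, and its difference of 0.37 ± 0.114 (adjusted p = 0.0436) was lost when single strains were left out. Cab39l, Sulf1, Lgals3bp, Cd9 and the locus that Rdh5 shares with Bloc1s1 were higher by 0.22 to 0.35 on the log2 scale. Htr2c, a serotonin receptor for which the plexus is well known but which neurons carry too, had a median of 25.4 FPKM in both groups and was not called (log2 difference 0.057 ± 0.0722).

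Transporters and channels showed a wide range of differences, and 12 of 22 were higher. Aqp1 (chromosome 6, 55336432 to 55348555), the water channel of the plexus epithelium, was at 1.32, 2.17 and 5.27 FPKM in high and at 0, 0.172 and 0.478 FPKM in low mice. The groups did not overlap, and the log2 difference was 1.58 ± 0.0739 (SE, adjusted p = 1.2e-28). Kcnj13 (chromosome 1, 87386363 to 87394729), an inward rectifier potassium channel of the apical membrane, had 1.79, 4.95 and 10.8 FPKM against 0, 0.234 and 2.28 FPKM, and 60 of 61 high mice lay above all low mice. Its log2 difference was 2.02 ± 0.124. Aqp1 exceeded 1 FPKM in 6 mice and Kcnj13 in 45 mice outside the high group. Both thus passed the authors' limit of 50 mice above 1 FPKM only through the high group. Aqp1 therefore had to differ, and for both genes the difference and its separation are a description.

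Carbonic anhydrases supply the bicarbonate that drives fluid secretion. Car12 rose from a median of 1.08 to 4.64 FPKM, with a log2 difference of 1.61 ± 0.103, whereas Car2, at medians of 95.4 and 98.4 FPKM, and Car14, at 8.26 and 9.80 FPKM, were not called. The chloride channel gene Clic6 was at 6.61, 10.3 and 15.9 FPKM in high and at 1.34, 4.73 and 9.38 FPKM in low mice, and 43 high mice lay above all low mice. Its log2 difference was 1.01 ± 0.0815 (adjusted p = 2.27e-16). The sulfate transporter gene Slc13a4 (0.80 ± 0.151), the copper transporter gene Slc31a1 (0.44 ± 0.0472) and the channel gene Trpm3 (0.36 ± 0.0595) were higher too. Slco1c1, which carries thyroid hormones, had a log2 difference of 0.33 ± 0.0474.

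Other listed transporters differed by less or were not called. The chloride carrier gene Slc12a2 differed by 0.16 ± 0.0489 (adjusted p = 0.0434), a call that was lost in several alternatives. Slc4a2, an anion exchanger, differed by 0.30 ± 0.0544. Slc4a10, Slc23a2 and Atp1b1 were not called.

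Among 15 genes for secreted proteins, 11 were higher. Enpp2 (chromosome 15, 54838898 to 54920146), which encodes autotaxin, an enzyme that makes lysophosphatidic acid, stood at 141, 231 and 427 FPKM in high and at 43.5, 69.0 and 99.2 FPKM in low mice. It was thus well expressed in every mouse, and yet no low mouse reached the lowest high mouse. The log2 difference was 1.82 ± 0.0812 (SE, adjusted p = 1.73e-29). 1500015O10Rik, the augurin gene, ran from 6.84 over 13.4 to 27.3 FPKM against 0.186, 2.23 and 5.06 FPKM, with a log2 difference of 2.31 ± 0.146. Sostdc1, an inhibitor of BMP and Wnt signals, ran from 3.54 over 7.58 to 19.9 FPKM against 0.469, 1.21 and 2.2 FPKM, with a log2 difference of 2.06 ± 0.103.

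Igf2, a growth factor made by plexus and meninges, differed less cleanly. Its lowest, median and highest values were 13.6, 21.4 and 44.9 FPKM in high and 5.22, 9.56 and 32.6 FPKM in low mice, and 9 high mice lay above all low mice. It was higher in 12 of the 14 strains, with a log2 difference of 0.88 ± 0.171 (adjusted p = 0.000366). Its binding protein gene Igfbp2 had medians of 18.2 and 8.05 FPKM and differed in the same direction in all 14 strains, by 1.25 ± 0.124. Lbp (0.998 ± 0.123), Ace (0.56 ± 0.0569) and Wfikkn2 (0.38 ± 0.0877) were higher as well. Clu and Ctsd, expressed throughout the brain, differed by 0.10 each, and Ctsd shares its locus with Ifitm10. Rbp4, Bmp6, Cp and Tf were not called.

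Structural genes and regulators were few. Of 4 genes for junctions and matrix, the collagen genes Col9a3 (0.74 ± 0.0962), Col8a2 (0.60 ± 0.0705) and Col8a1 (0.55 ± 0.0593) were higher and Perp was not called. Of 5 transcription factor genes, Msx1, at medians of 3.19 and 1.12 FPKM, was higher by 1.21 ± 0.125. Otx2, the homeodomain factor that the plexus epithelium needs, was at 3.31, 6.14 and 10.5 FPKM in high and at 0.927, 3.58 and 6.23 FPKM in low mice, and differed by 0.85 ± 0.118 (adjusted p = 2.28e-07). In 30 high mice Otx2 exceeded every low mouse. Rfx2, Rfx3 and Lmx1b were not called.

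To show what lies before the start of genes that moved together, the 250 bases upstream of the RefSeq start (GRCm38.p6, written 5′ to 3′ on the strand of the gene) are given for Kl, chr5:150952357-150952606 on the plus strand, and Kcnj13, chr1:87394730-87394979 on the minus strand, together with 30 bases around a match in an Otx2 window, chr14:48665303-48665332 on the minus strand. The search was for TAATCC, the letters known for Otx-type homeodomain factors, on both strands (GGATTA on the other), and matches are in capitals.
Kl: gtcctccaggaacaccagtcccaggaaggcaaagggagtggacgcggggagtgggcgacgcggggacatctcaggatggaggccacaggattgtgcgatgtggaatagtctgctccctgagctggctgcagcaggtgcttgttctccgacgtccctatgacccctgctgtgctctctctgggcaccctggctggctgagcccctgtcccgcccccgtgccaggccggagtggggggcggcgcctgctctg
Kcnj13: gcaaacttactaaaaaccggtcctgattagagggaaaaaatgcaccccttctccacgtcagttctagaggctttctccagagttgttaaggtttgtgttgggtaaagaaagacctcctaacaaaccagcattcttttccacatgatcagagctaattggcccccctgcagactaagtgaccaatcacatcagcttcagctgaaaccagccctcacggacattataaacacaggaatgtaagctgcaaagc
Otx2 site: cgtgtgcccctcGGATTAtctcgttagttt

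The letters are absent from the windows of Kl and Kcnj13. Windows were found for 25 of the 37 higher plexus loci, and 3 of their 38 windows held a match, in Otx2, Ace and Cd9. Over all 32851 windows of that length, 6.25% held one.

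The 129 mice of known strain with Ttr from 10 to below 400 FPKM were left out of both groups by the same rule on Ttr. They were used to ask which genes rise with Ttr there. By limma with strain as a term, 12 genes rose (0.0852%) and 1 fell (0.0071%), and 380 had an unadjusted p below 0.05. All 12 were also higher in high than in low mice. They were Kl, Aqp1, Enpp2, 1500015O10Rik, Sostdc1, Car12, Folr1 and 5 unnamed loci. Aqp1 exceeded 1 FPKM in 6 mice outside the high group. XLOC_000767, XLOC_029390, XLOC_030512, XLOC_038585 and XLOC_039007, the unnamed loci, did so in 9, 4, 2, 0 and 7. Aqp1 and these loci passed the authors' expression limit only through the high group. Their higher level in high mice was thus set in advance and is a description. The slope of Kl was 0.25 ± 0.0227 per unit of log2(Ttr + 1) (adjusted p = 3.6e-11), that of Aqp1 0.19 ± 0.0172 (2.1e-11) and that of Enpp2 0.20 ± 0.0201 (1.16e-09). Folr1 had a slope of 0.25 ± 0.0523 (adjusted p = 0.0204), and Kcnj13, with 0.21 ± 0.0546, was not called (adjusted p = 0.316). The gene that fell, Rbm38 (-0.16 ± 0.0348, adjusted p = 0.0401), did not differ between high and low mice (adjusted p = 0.712) and was named after its value was seen.

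The levels in steps of Ttr show where the rise begins. The median of Kl was 1.32 FPKM below a Ttr of 5 FPKM, 1.30 from 5 to below 10, 1.33 from 10 to below 20, 1.56 from 20 to below 50 and 1.88 from 50 to below 100. It went on to 2.73 from 100, 4.11 from 200, 7.26 from 400 and 10.02 FPKM from 1000. Kl was thus flat up to about 20 FPKM of Ttr. Enpp2 had medians of 60.7, 72.7, 68.8, 75.2 and 78.8 FPKM in the first 5 steps and of 104, 124, 205 and 277 FPKM in the others. Its median was already higher in the second step than in the first. Otx2 went from a median of 2.79 FPKM in the first step to 3.76 in the second, stood at 3.79 FPKM from 100 to below 200 and at 4.80, 5.63 and 7.48 FPKM in the last 3 steps. In the first 3 steps, below a Ttr of 20 FPKM, the medians also rose in 1500015O10Rik (1.38, 2.55 and 2.84 FPKM), Folr1 (0.788, 1.01 and 1.15 FPKM) and Igfbp2 (6.50, 8.56 and 8.66 FPKM).

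**Figure D3:**
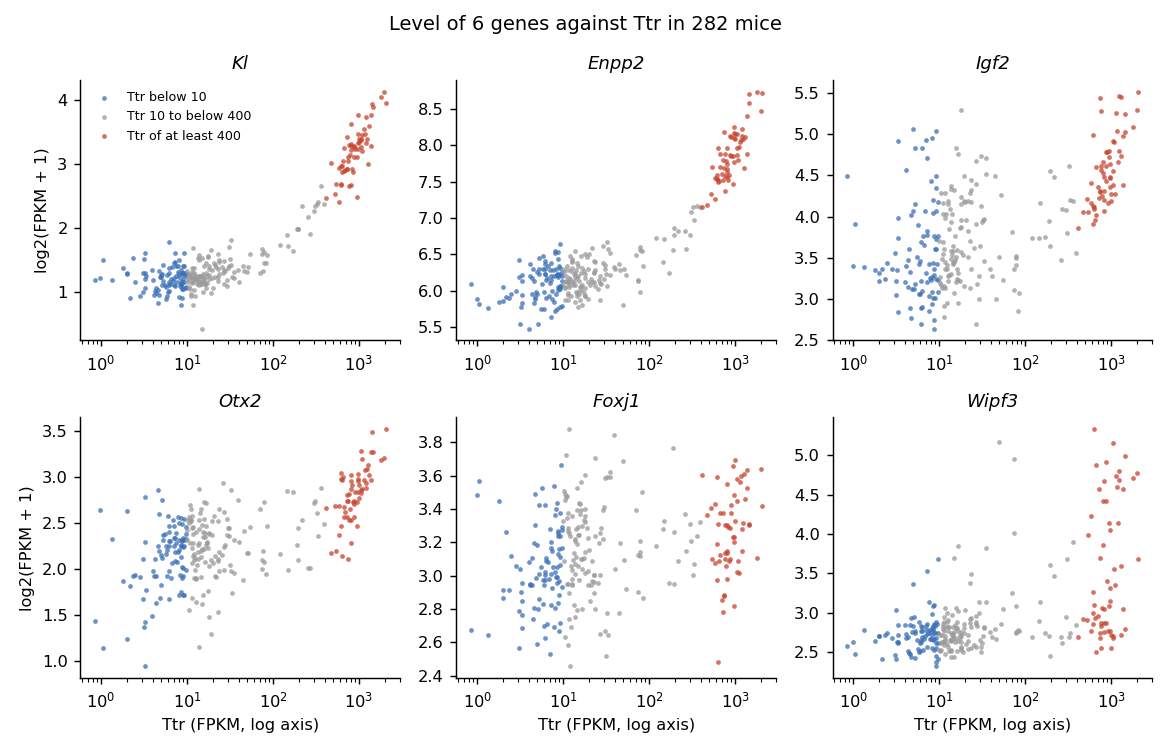
Level of 6 genes as log2(FPKM + 1) against Ttr in FPKM on a log axis, 1 point for each of 282 mice, coloured by the Ttr group. Kl and Enpp2 rise in a narrow band at high Ttr, Otx2 and Igf2 are higher in high mice with wide scatter, Foxj1 overlaps broadly between groups, and Wipf3 spreads widely among the high mice, from 4.65 to 39.2 FPKM.

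The 70 strains that held only 1 of the groups gave a second set of mice, 44 high and 76 low, in which 430 genes were higher (3.05%) and 414 lower (2.94%) with strain as a random effect. Here strain and group cannot be told apart for a single strain, and the comparison was added after the data had been seen. Of the 395 higher genes, 174 were also called higher in these strains and 369 had the same sign, and of the 191 lower genes 58 were called lower and 175 had the same sign. Choroid plexus loci were higher in 40 of 58 cases and lower in 1, Lmx1b. The log2 differences of Kl (1.97), Folr1 (2.32), Enpp2 (1.75), Aqp1 (1.51) and Kcnj13 (2.05) were close to those within strains. These mice were grouped by the same rule on Ttr. Aqp1 and Kcnj13 passed the authors' expression limit only through the high group, which includes the high mice of these strains. For both genes the closeness is a description.

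**Figure D4:**
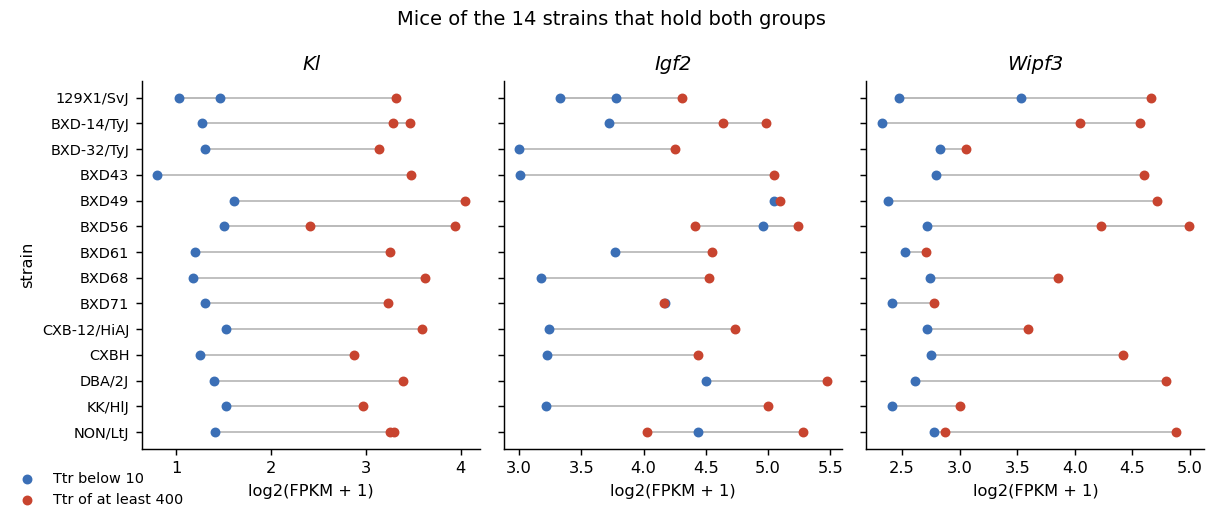
Level of Kl, Igf2 and Wipf3 as log2(FPKM + 1) in the mice of the 14 strains that held both groups, with low mice in blue, high mice in red and a line joining the mice of a strain. Kl was higher in the high mice of every strain, by 1.44 to 2.67, Igf2 in 12 strains, and the Wipf3 difference varied widely in size between strains.

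The ciliated ependyma lies next to the plexus. Of its 20 loci, 9 were higher and 0 lower, beside 2.81% and 1.36% of all genes, with a median log2 difference of 0.16. Their summed level ran from 180 over 225 to 266 FPKM in high and from 164 over 196 to 251 FPKM in low mice, so that the groups overlapped. Foxj1, the master regulator of motile cilia, was at 4.59, 8.79 and 11.9 FPKM in high and at 4.79, 7.07 and 11.7 FPKM in low mice, again with broad overlap. Its difference was 0.29 ± 0.0611 (adjusted p = 0.00112). The cilium genes Rsph1 (0.35 ± 0.0669), Ccdc153 (0.31 ± 0.0836) and Spag6 (0.26 ± 0.0714) were of the same size, and 0 of the 20 loci rose with Ttr between the limits. None of the 9 calls held in every alternative. In the strains with 1 of the groups 10 of the 20 loci were higher and 0 lower, with a median of 0.16. There 3.05% of all genes were higher. Tmem212, Rarres2, Tekt1 and Dynlrb2 were not called.

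Of 11 loci for tanycytes, the ventricle lining cells of the hypothalamus, 1 was higher, Crym (0.61 ± 0.189, adjusted p = 0.0478), which had medians of 1.77 and 1.69 FPKM and a difference of 0.14 (adjusted p = 0.566) in the other strains. Of 13 loci for plexus stroma and leptomeninges, Pcolce was higher, at 2.60, 5.73 and 8.75 FPKM against 1.06, 2.50 and 7.52 FPKM, with a log2 difference of 0.78 ± 0.131 (adjusted p = 2.05e-05). The stroma genes Dcn, Mgp, Slc6a13 and Ptgds were not called. None of 4 loci for fenestrated endothelium was called, and Plvap, its diaphragm protein, had medians of 6.18 and 5.46 FPKM. These shares are to be read beside the 4.16% called over all genes. In the strains with 1 of the groups 2 of the 13 stroma loci were higher, Pcolce and Bmp7 (0.23), and the median over the list was 0.23, against 0.037 within strains.

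The calls in brain endothelium, macrophages, microglia and blood are to be read beside the 4.16% called over all genes. Bsg was higher (0.14 ± 0.0347) and Flt1 lower (-0.18 ± 0.0569) among 10 loci for endothelium with a blood-brain barrier, and 0 of 5 loci for border macrophages and 0 of 9 for microglia were called. Among 5 blood loci, Hbb-bs was called higher (0.45 ± 0.139, adjusted p = 0.0447), yet its medians were 105 and 102 FPKM and the difference was -0.024 in the other strains. Astrocytes, oligodendrocytes, habenula, thalamus and anterior pituitary had 0 of 7, 7, 7, 5 and 6 loci called, and the summed FPKM of the pituitary list ran from 1.61 to 16462 in high and from 0.589 to 15828 in low mice. The 4 loci of the Y chromosome were not called either.

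**Figure D5:**
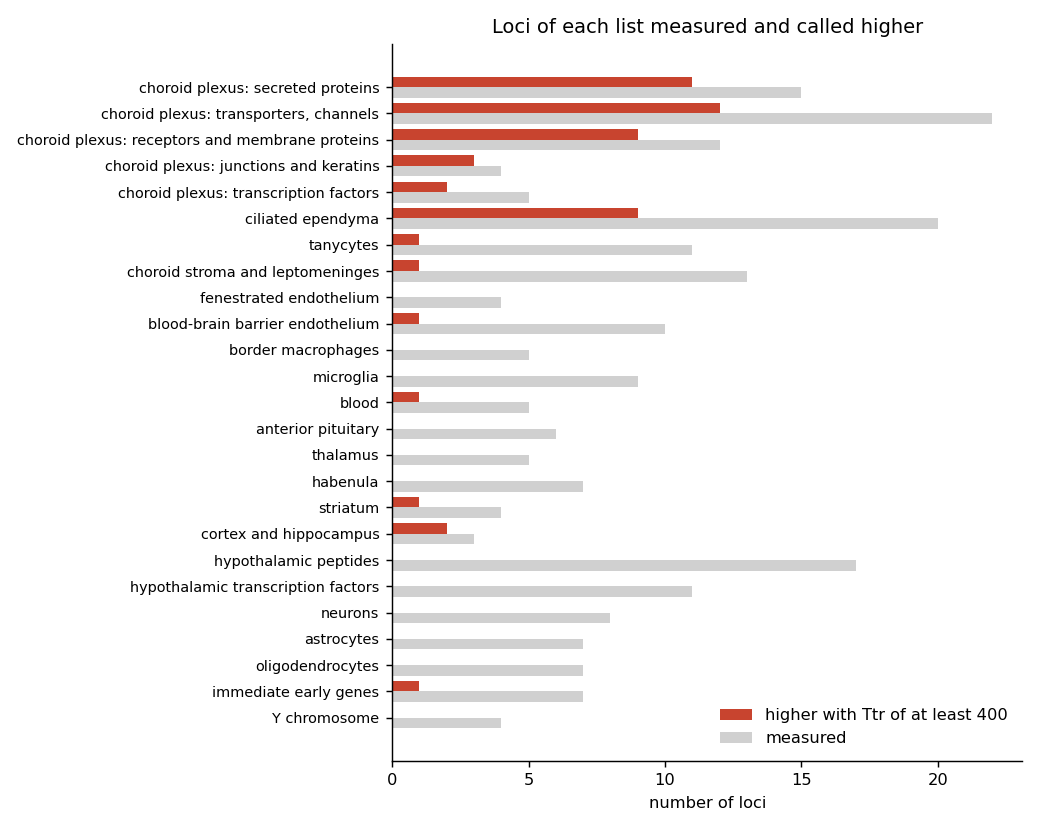
Number of loci measured (grey) and called higher in mice with high Ttr (red) in each of 25 gene lists, by limma with an adjusted p below 0.05. The 5 choroid plexus lists hold 37 calls among 58 loci, ciliated ependyma 9 among 20 and cortex and hippocampus 2 among 3, and every other list holds at most 1. Over all genes tested, 2.81% were called higher.

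Within strains, few genes of the hypothalamus itself were called, beside 4.16% of all genes. None of 17 loci for hypothalamic peptides was called, and the medians in high and low mice were 118 and 117 FPKM for Agrp, 222 and 221 FPKM for Avp and 158 and 161 FPKM for Sst. Agrp shares its locus with Atp6v0d1. In the strains with 1 of the groups, 2 of the 17 were lower, Cartpt (-0.30) and Hcrt (-0.32). There 2.94% of all genes were lower. Of 11 hypothalamic transcription factor loci 0 were called within strains. In the strains with 1 of the groups 5 of the 11 were lower, a larger share than the 2.94%, with a median of -0.18 over the list. Among 8 neuronal loci Slc17a6, the vesicular glutamate transporter of the diencephalon, was lower at 46.3, 87.5 and 113 FPKM against 55.3, 95.7 and 128 FPKM, with a log2 difference of -0.24 ± 0.0665 (adjusted p = 0.0221) that was -0.12 (adjusted p = 0.138) in the other strains.

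The list of cortex and hippocampus had 3 measured loci, of which Slc17a7 and Tbr1 were higher and 1 was not called, with a median log2 difference of 0.69. Several genes that were named for their large difference outside the lists are known from forebrain neurons too. They were brought together after their values had been seen, and no test was made of them as a group. Among them Wipf3, a regulator of actin, was at 4.65, 7.88 and 39.2 FPKM in high and at 3.997, 5.54 and 11.8 FPKM in low mice. In 24 of the 61 high mice, from 18 strains, it lay above every low mouse, while the other 37 were inside the range of the low mice. Its log2 difference was 1.32 ± 0.18 (adjusted p = 1.4e-07) within strains and 0.60 in the other strains. Tbr1, a transcription factor of cortical glutamatergic neurons, was at 0.479, 2.22 and 7.76 FPKM against 0.188, 1.31 and 3.58 FPKM (0.69 ± 0.126). Slc17a7, the cortical vesicular glutamate transporter, had medians of 32.2 and 25.2 FPKM (0.91 ± 0.26).

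Itpka (0.96 ± 0.175), Ptk2b (0.87 ± 0.152), Chrm1 (0.73 ± 0.12), Kcnj4 (0.71 ± 0.133), Nrgn (0.69 ± 0.115), Hpca (0.64 ± 0.119), Icam5 (0.64 ± 0.131) and Rgs14 (0.63 ± 0.114), genes of hippocampal or cortical neurons, were higher within strains. Hpca, Nrgn and Kcnj4 were not called in the strains with 1 of the groups, at 0.096 (adjusted p = 0.519), 0.22 (0.136) and 0.20 (0.199). Of the 24 mice with Wipf3 above all low mice, 19 also had Hpca, 15 Ptk2b, 13 Itpka and 13 Chrm1 above all low mice, but only 3 had Nrgn, 2 Kcnj4 and 0 Icam5 above them. These 24 had a median Ttr of 954 FPKM and the other high mice one of 813 FPKM. Wipf3 was also above all low mice in 8 of the 130 mice between the limits, and none of these genes rose with Ttr there.

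With the mean level of the cortex and hippocampus genes as a covariate, a setting added after the data had been seen, 441 genes were higher and 577 lower. Of the forebrain genes that were not part of the covariate, 9 kept their call, Wipf3 at 0.87 among them, and Ptk2b lost it (0.31, adjusted p = 0.0527). Of the plexus calls 34 of 37 were kept. The forebrain genes other than Slc17a7 and Tbr1 were named for their large difference within strains, so that this difference is a description. The part of the forebrain genes in the other differences, the lower genes in particular, was not tested beyond this setting. Of 4 loci of the striatum list, Ppp1r1b was higher (0.64 ± 0.123), in 14 of 14 strains, the other 3 had negative differences and were not called, and the median was -0.063.

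Other genes of the 20 with the largest positive differences outside the lists were of different kinds. Cox8b, a subunit of cytochrome oxidase known from muscle, was at 0, 1.96 and 11.0 FPKM in high and at 0, 0 and 1.96 FPKM in low mice (1.48 ± 0.193), and 30 high mice lay above all low mice. Sln, the sarcolipin gene, known from muscle too, had medians of 1.42 and 0.253 FPKM (1.04 ± 0.184). Ccdc135, which encodes a ciliary protein, had medians of 4.72 and 2.32 FPKM, lay above all low mice in 42 high mice and was higher in 14 of 14 strains (0.79 ± 0.0852). Cdkn1c, a growth inhibitor, had medians of 3.70 and 2.21 FPKM (0.57 ± 0.0821). Cox8b and Sln exceeded 1 FPKM in 35 and 41 mice outside the high group. They passed the limit of 50 mice only through that group, and their difference is a description. Fewer than 50 mice outside the high group exceeded 1 FPKM in 22 of the 395 higher genes and in 238 of the 14078 genes tested. The share was thus larger among the higher genes.

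Of the 395 loci that were higher, 65 carried no gene name, 64 of them because no transcript of theirs was in the assembly used. Whether listed plexus genes not found by name are among them was not tested. Of the 65, 6 differed by at least 1 on the log2 scale. XLOC_000767 was at 1.22, 2.82 and 6.05 FPKM in high and at 0.0705, 0.220 and 0.546 FPKM in low mice, with a log2 difference of 1.69 ± 0.0838 and a slope of 0.19 ± 0.017 between the limits. XLOC_030512 was at 0.774, 1.82 and 4.46 FPKM against 0, 0.0604 and 0.306 FPKM (1.48 ± 0.0832). Outside the high group these loci exceeded 1 FPKM in 9 and 2 mice, so that both passed the limit of 50 mice only through the high group and had to differ, and their separation is a description.

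The lower genes were small in effect, and several of the 10 largest are receptors and channels of neurons. Glra1, a glycine receptor subunit, had medians of 5.66 and 6.84 FPKM and was lower in 14 of 14 strains, by -0.39 ± 0.0964 on the log2 scale (adjusted p = 0.00927). Next came Kcna2, a potassium channel (-0.35 ± 0.105), Oprm1, the mu opioid receptor (-0.35 ± 0.0973), Calca, the gene of CGRP (-0.34 ± 0.0877), and Gabrb2, a GABA receptor subunit (-0.31 ± 0.0941). They were followed by Arhgap32 (-0.30 ± 0.0805), Fut9 (-0.29 ± 0.0809), Srgap1 (-0.28 ± 0.0696), Gm20394 (-0.27 ± 0.0854) and Gsk3b (-0.27 ± 0.074). In each the high and low mice overlapped. In the strains with 1 of the groups, Glra1 (-0.25, adjusted p = 0.0337) and Srgap1 (-0.16, adjusted p = 0.0272) were called, and the other 8 had the same sign and were not.

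The start sites of transcripts were tested in the same way. Of 32535 start site rows, 194 were higher (0.596%) and 38 lower (0.117%), and 138 of the higher ones belonged to a gene that was itself higher. The sites named here are pairs within a gene chosen for the widest gap between a called and an uncalled site, so that the gap is a description. Igf2 had a called start site (TSS85150, chromosome 7, transcripts from 142650766 to 142657496) with medians of 16.1 and 6.14 FPKM and a log2 difference of 1.02 ± 0.171 (adjusted p = 7.25e-05). Another of its sites (TSS85155, 142650843 to 142653030) had medians of 3.09 and 2.35 FPKM and was not called (0.12 ± 0.28).

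In Pcolce, TSS71862 had medians of 3.18 and 1.13 FPKM (1.27 ± 0.195). TSS71861 had medians of 0.787 and 0.401 FPKM and was not called (0.12 ± 0.198 within strains). A site of Kcnip2, which encodes a potassium channel partner, differed by 0.59 ± 0.115 and another of its sites by -0.38 ± 0.277. In Kalrn, a neuronal exchange factor, a site differed by 0.93 ± 0.211 and another by -0.081 ± 0.0895. The other 6 genes with the widest gaps between sites were Nbr1, Pdcd2, Sipa1l3, Gas7, Gria1 and Dync1h1. FPKM of start sites come from the division of shared reads among transcripts, and no test was made of the difference between sites. Ttr itself had most of its level at TSS41052, with a median share of 62.7% in high and 54.5% in low mice.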

How the data were processed

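Reads were mapped by the authors with STAR 2.3.1 on mm10. Cufflinks 2.2.0 gave an assembly for each strain, these were joined with GENCODE M2, and Cuffnorm 2.2.1 made the FPKM. The values were deposited as FPKM on the Cuffnorm scale, and cover features above 1 FPKM in at least 50 mice. FPKM carry no counts, so the depth behind a value is unknown here and precision is given by the spread over mice. Symbols and coordinates came from the deposited assembly: 11497 of 14079 gene rows carried 1 name, 639 several and 1943 none. The number of mouse columns not used was 0.

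Mice were grouped by Ttr FPKM (at least 400, below 10, or between). OB-627, whose labels name 2 strains, stayed out of all fits, and the main fit held 152 mice of 84 strains. log2(FPKM + 1) was tested with limma 3.58.1 in R 4.3.3, strain as a fixed term, Benjamini-Hochberg adjustment over all rows and a threshold of 0.05. The same test gave the slope on log2(Ttr + 1) in mice between the limits, and the test of start sites. The tests were checked on simulated data.

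Genes were named from 25 lists and, outside these, as the 20 largest positive and 10 most negative differences among called genes with 1 name, and the 10 genes whose start sites differed most. The groups of mice, the lists and the tests were chosen with earlier results of these data known. Some members of the lists are counted but not reported here by name. Summaries used pandas 2.3.3 and numpy 2.4.6 under Python 3.11.15, and plots matplotlib 3.10.9. Alternatives changed the strain term, pseudocount, filter, scaling, Ttr limits, covariates, and mice or strains left out.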

Additional observations from a re-analysis of the deposited data

How the results depend on the processing

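The calls outside the plexus genes depended on how strain was treated. Against 395 higher and 191 lower genes, dropping the strain term gave 1137 and 1200, and strain as a random effect 1037 and 1080. Limits of at least 200 and below 20 FPKM gave 218 and 24, and limits of 1000 and 10 gave 511 and 598. The lower genes became 68 with a slope over all mice (324 higher), 118 with read depth and the unique share as covariates (330 higher), 414 in strains with 1 of the groups and 577 with the cortex and hippocampus list as a covariate. The share of higher calls, 67.4% in the main fit, was 59.0% after quantile normalization, with 376 higher and 261 lower genes. Leaving out the mouse of 1 accession-order number from every strain left 4 to 8 strains with both groups, against 14, and gave 24 to 106 higher and 0 to 18 lower genes, and leaving out a shared strain gave 279 to 455 and 78 to 333. BXD56 (282 and 78), DBA/2J (279 and 85), CXB-12/HiAJ (294 and 91), BXD61 (335 and 96) and BXD-14/TyJ (306 and 101) lowered the count of lower genes, and 129X1/SvJ (381 and 303) and BXD68 (455 and 333) raised it. The causes were not tested beyond these counts.

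Between the limits, 12 genes rose in the main fit, 6 with a mean FPKM of at least 1, a filter that takes rows of low level out of the test, and 0 to 8 without 1 mouse per strain. The 1 falling gene became 0 with a pseudocount of 0.1, no strain term, a random strain effect, that filter, quantile normalization, Ttr from 20 FPKM, and without 1 mouse per strain (0). Start sites were 866 higher and 878 lower with no strain term, and 22 to 52 and 1 to 2 without 1 mouse per strain, against 194 and 38. The strain share of Ttr ran from 0.282 to 0.373 without 1 mouse per strain.

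Of the 37 choroid plexus calls, 13 held in every alternative: 1500015O10Rik, Ace, Aqp1, Calml4, Car12, Clic6, Col8a2, Enpp2, Folr1, Igfbp2, Kcnj13, Kl and Sostdc1. Aqp1 and Kcnj13 passed the authors' expression limit only through the high group, so that their place among the 13 is a description. In the fits that left out a mouse per strain 13, 25 and 23 of the 37 held, and in those that left out a strain 33 to 37. Of the 9 ependymal and 12 forebrain genes none held in every alternative: without the first mouse of every strain 0 and 0 were called. Among the 86 called genes followed one by one, signs turned in 3 cases, Gm10288 (-0.11) and Hbb-bs (-0.024) in strains with 1 of the groups and Dnali1 without the first mouse (-0.10, and 0.356 at most when another mouse per strain was left out). OB-547, a mouse of the middle range with an FPKM sum of 792801, was in neither group. Leaving it out could change only the fit between the limits, where 12 genes still rose and 1 fell. The labels carry no replicate numbers, and mice were matched by strain alone, as a term of the fit.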
